A study of Mus musculus with 221 samples.

Results

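The immediate early genes examined here were Fos, Fosb, Jun, Junb, Jund, Egr1, Ier2, Dusp1, Atf3 and Nr4a1, that is 10 of the 23244 features in the expression table, taken by name and followed across 221 single cells. The cells were taken from microdissected medial cortex of C57BL/6J mice at embryonic day 18.5, as 2 independent pools of 8 neocortices each, made into suspensions with an enzyme-based kit for neural tissue. Pool 1 gave 122 cells and pool 2 gave 99. No cell was treated and no gene was altered, so the comparisons are between cell classes of the same pools. Each cell name also ends in a letter, A or B, whose meaning the labels do not give. Pool 1 held 57 cells with A and 65 with B, and pool 2 held 66 with A and 33 with B.

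Immediate early genes are transcribed within minutes of a stimulus, from transcription factors such as SRF and CREB that are already in the cell and are switched on by kinase cascades, and need no new protein. Fos and Jun proteins pair into the AP-1 factor, Egr1 is a zinc finger factor, and Dusp1 is a phosphatase that dephosphorylates MAP kinases and so damps the cascade. In brain they are known as readouts of neuronal activity and growth factor signalling, and enzymatic dissociation of tissue is also known to raise them. All 221 cells went through dissociation, so its part in any level below was not tested.

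The bases just upstream of 3 members are shown with the letter matches found in them, for a member that differed most between classes (Fos), its AP-1 partner (Jun) and a member that did not pass the test in any comparison (Dusp1). RefSeq promoters on GRCm38.p6 were matched for 8 of the 10 members, Egr1 and Ier2 being without a match. The 150 bases before the annotated start are printed 5′ to 3′ on the gene's strand. Capitals mark the cAMP response element TGACGTCA or its TGACG end (CGTCA on the other strand), the variant TGACATCA and the TATA motif TATAAA.
Fos, chr12:85473740-85473889, plus strand: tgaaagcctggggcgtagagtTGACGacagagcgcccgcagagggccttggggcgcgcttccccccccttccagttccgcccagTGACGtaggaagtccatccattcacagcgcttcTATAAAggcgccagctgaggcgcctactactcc
Jun, chr4:95052223-95052372, minus strand: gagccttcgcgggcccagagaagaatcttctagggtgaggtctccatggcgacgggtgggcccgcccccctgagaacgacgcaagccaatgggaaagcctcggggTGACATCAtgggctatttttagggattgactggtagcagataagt
Dusp1, chr17:26508473-26508622, minus strand: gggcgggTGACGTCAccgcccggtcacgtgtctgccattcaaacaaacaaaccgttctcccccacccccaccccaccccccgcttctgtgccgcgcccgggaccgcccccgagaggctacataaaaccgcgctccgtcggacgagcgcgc

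Motifs were searched on both strands of the 250 bases upstream of each start, and the full TGACGTCA also counts as TGACG. Dusp1 held the full element, beginning 143 bases before its start, as did 1.55% of the 32851 mouse promoters of the same length. TGACG alone was in 17.8% of promoters, and among the 8 matched members it was in Fos (129 and 66 bases before the start), Fosb, Junb, Dusp1, Atf3 and Nr4a1. Jun held TGACATCA 45 bases before its start (2.93% of promoters), and Fos held TATAAA 33 bases before its start (12.4%). The CArG box, to which SRF binds, is in 1.47% of promoters and the AP-1 site, TGACTCA or TGAGTCA, in 4.46%. Neither was in these windows of the 8 members. Egr1, Ier2 and bases further upstream than 250 were not searched, so sites there are not covered. A match is a stretch of letters, not a shown binding site.

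The values are TPM, transcript shares per length scaled to a total of 1000000 in each cell. No value is 0: each cell has a lowest value, its floor, between 1.33 and 2.998 TPM, and a gene was counted as detected above it. Reads per cell are not in the table, so sequencing depth is unknown; a cell had 2146 to 6727 genes detected. Clustering on marker genes gave 16 radial glia-like cells, the neural stem cells of the cortex, 18 intermediate progenitor-like, 23 newborn neuron-like, 29 interneuron-like and 109 excitatory neuron-like cells. Unnamed were cluster 8 (13 cells) and cluster 9 (7 cells), which hold radial glia markers together with markers of neurons or of intermediate progenitors, cluster 6 (5 cells, all of pool 1 with letter A) and a single cell. The radial glia-like cells had all 13 radial glia markers above the floor in at least 1 cell and a median of 56.9 TPM of the neuronal gene Neurod6, against 1697 TPM in excitatory neuron-like cells. Of the 16, however, 7 had 100 TPM of Neurod6 or more, 2 of 8 in pool 2 (median 15.5 TPM) and 5 of 8 in pool 1 (median 221.5 TPM), and without these 7 cells the members called against excitatory neuron-like cells were 1, Jun, in place of 3. Above the floor in at least 1 cell were 4 of 5 astrocyte markers and 4 of 6 oligodendrocyte precursor markers. These counts were the same in the excitatory class. In 50% of cells or more, the radial glia-like class had 1 astrocyte and 2 oligodendrocyte precursor markers above the floor. The excitatory class had 0 of either list. The excitatory neuron-like name is weak, with 1 marker of its own among its 10 leading genes.

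Over both pools together, radial glia-like cells carried the highest mean levels of Fos, Egr1 and Jun of any named class, and nearly every one of them had Fos. In pool 2 alone, the 3 intermediate progenitor-like cells had a higher mean log2 level of Fos (8.12) than the 8 radial glia-like cells (7.89). In a limma test on log2(TPM + 1), averaged over the cells of a class in each pool (n = 2 pools), 3 members rose in the radial glia-like class against the excitatory class: Fos, Egr1 and Jun. The same 3 and Ier2 rose against interneuron-like cells. No member fell. The background is that 4.02% of 10682 genes tested were called higher in the first comparison and 4.42% in the second, where a call needed a change of 1 or more on the log2 scale and an adjusted p under 0.05. Members were tested where they were above the floor in at least 10 cells, which 7 of the 10 were, and each of these 7 also passed on cells outside the radial glia-like class. Fosb, Atf3 and Nr4a1 did not pass and are described by their cells. The choice of members was made with earlier results of these cells known, so their counts are a description.

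**Figure D1:**
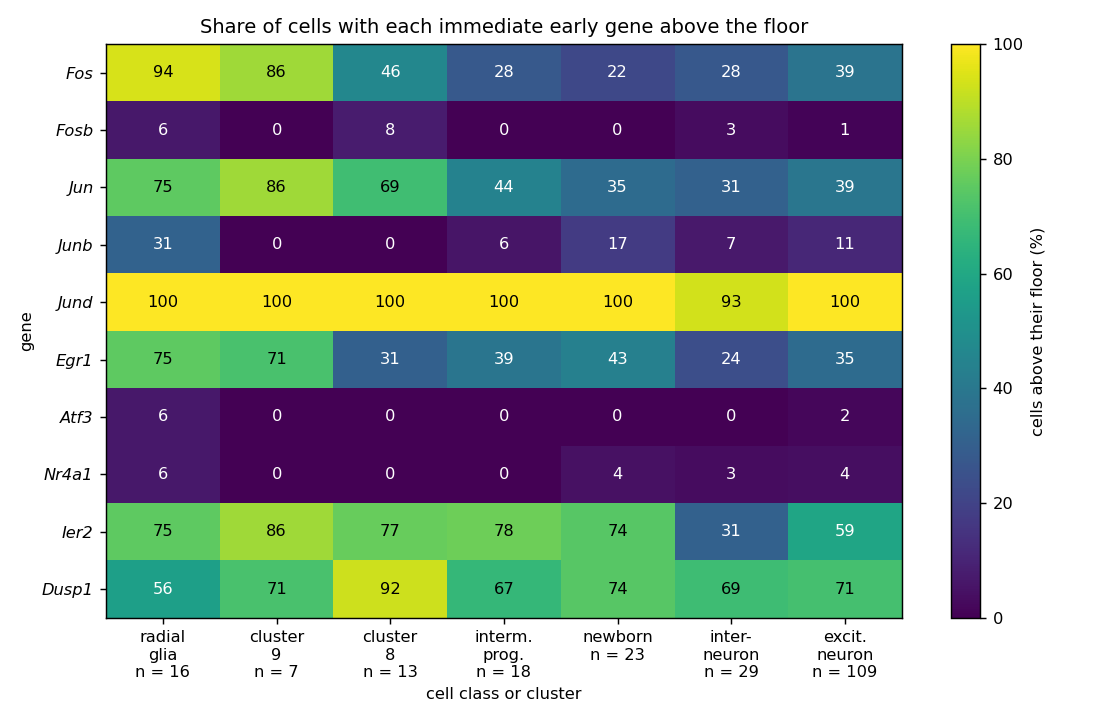
Percent of cells above their floor (colour and printed value) for the 10 members (rows) in the 5 classes named by markers and clusters 8 and 9 (columns, n cells under each). Fos, Jun and Egr1 are at 75% or more in radial glia-like cells and below 40% in excitatory neuron-like cells, while Jund is near 100% in all columns and Fosb, Atf3 and Nr4a1 are below 10% in all.

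Fos encodes the AP-1 subunit that is hardly made in resting cells (chromosome 12, positions 85473890 to 85477273, plus strand, GRCm38). It was detected in 15 of 16 radial glia-like cells (93.8%, with 69.8 to 99.8% as the exact binomial 95% bounds), in 8 of 29 interneuron-like cells (27.6%, 12.7 to 47.2%) and in 42 of 109 excitatory neuron-like cells (38.5%, 29.4 to 48.3%). These intervals cover counting error only. In the radial glia-like cells of pool 2 its lowest, median and highest values were 2.05, 404 and 1808 TPM, and in those of pool 1 they were 99.6, 173 and 657 TPM. In excitatory neuron-like cells they were 1.33, 2.11 and 309 TPM in pool 2, and 1.61, 1.96 and 209 TPM in pool 1. The typical radial glia-like cell thus had Fos far above its floor and the typical excitatory neuron-like cell had it near the floor, although the ranges of single cells overlapped. The difference was 4.81 ± 0.85 on the log2(TPM + 1) scale (SE, adjusted p = 0.00551), and against interneuron-like cells 5.01 ± 0.85 (adjusted p = 0.00454). By mean log2 level over both pools together the order was radial glia-like (7.83), cluster 9 (5.81), cluster 8 (3.87), intermediate progenitor-like (3.22), excitatory neuron-like (3.01), newborn neuron-like (2.83) and interneuron-like (2.73). The differences of the interneuron-like and newborn neuron-like classes from the excitatory neuron-like one were smaller than their standard errors.

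Fosb, the closest relative of Fos, was detected in 5 of 221 cells. They were 1 radial glia-like cell (33.3 TPM), 1 interneuron-like cell (39.4 TPM), 1 excitatory neuron-like cell (6.50 TPM), 1 cell of cluster 8 (26.0 TPM) and the single unnamed cell (53.9 TPM). Fosb was therefore at the floor in 15 of the 16 cells of the class in which Fos was nearly always present.

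The Jun family gives the other partner of AP-1, and its 3 genes differed in how they were spread. Jun (chromosome 4, 95049034 to 95052222, minus strand) was detected in 12 of 16 radial glia-like cells (75%, 47.6 to 92.7%), 9 of 29 interneuron-like cells (31.0%, 15.3 to 50.8%) and 43 of 109 excitatory neuron-like cells (39.4%, 30.2 to 49.3%). Its lowest, median and highest values in radial glia-like cells were 1.61, 86.3 and 286 TPM in pool 2, and 1.69, 44.6 and 127 TPM in pool 1. In excitatory neuron-like cells they were 1.47, 1.87 and 250 TPM in pool 2, and 1.61, 2.09 and 253 TPM in pool 1. The highest cells of both classes reached similar levels. Among cells with Jun, the median was 68.9 TPM in radial glia-like cells and 21.6 TPM in excitatory neuron-like cells. The difference was 2.35 ± 0.62 (adjusted p = 0.0429) against excitatory neuron-like cells and 2.37 ± 0.62 (adjusted p = 0.0394) against interneuron-like cells. The first lost its call with the pool as a block in the model (adjusted p = 0.0532), and it was 3.13 in pool 2 and 1.57 in pool 1.

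Junb, a Jun relative that is a weaker activator, was detected in 5 of 16 radial glia-like cells (31.3%, 11.02 to 58.7%), 2 of 29 interneuron-like cells (6.90%, 0.846 to 22.8%) and 12 of 109 excitatory neuron-like cells (11.01%, 5.82 to 18.4%). The 5 radial glia-like cells had 68.2, 203, 286, 293 and 563 TPM, while no excitatory neuron-like cell exceeded 116 TPM. The difference, 1.43 ± 0.50, did not pass (adjusted p = 0.124), and neither did that against interneuron-like cells, 1.46 ± 0.50 (adjusted p = 0.104). In the annotation Junb overlaps Prdx2 on the other strand, and strand was not stated to be used in the quantification. The Prdx2 difference in the first of these comparisons was -0.29 ± 0.24 (adjusted p = 0.573).

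Jund, which is known as the Jun gene with steady expression in resting cells, was detected in 219 of 221 cells. Its lowest, median and highest values were 4.38, 50.7 and 134 TPM in radial glia-like cells, 1.86, 34.0 and 134 TPM in interneuron-like cells, and 5.61, 101 and 410 TPM in excitatory neuron-like cells. Its mean was 55.2 TPM in radial glia-like, 44.1 TPM in interneuron-like and 112 TPM in excitatory neuron-like cells, an order unlike that of Fos and Jun. None of these differences passed: -1.03 ± 0.58 for the radial glia-like against the excitatory class (adjusted p = 0.371), 0.62 ± 0.58 for radial glia-like against interneuron-like cells (adjusted p = 0.609), and -1.65 ± 0.58 for interneuron-like cells set against the excitatory class (adjusted p = 0.732). An antisense gene, Gm11175, overlaps Jund in the annotation, and Junos overlaps Jun.

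Egr1 is a zinc finger factor that responds to growth factors and synaptic activity. Over both pools together its mean level, like that of Fos, was the highest of the named classes in radial glia-like cells. The unnamed cluster 9 was close, at a mean log2 level of 5.65 against 6.02. In pool 2 the mean TPM of Egr1 was higher in the 3 intermediate progenitor-like cells than in radial glia-like cells (429 against 280), but its mean log2 level was lower (6.10 against 6.63). Egr1 was detected in 12 of 16 radial glia-like cells (75%, 47.6 to 92.7%), 7 of 29 interneuron-like cells (24.1%, 10.3 to 43.5%) and 38 of 109 excitatory neuron-like cells (34.9%, 26.0 to 44.6%). Lowest, median and highest values in radial glia-like cells were 1.66, 240 and 798 TPM in pool 2, and 1.598, 111 and 1081 TPM in pool 1. In excitatory neuron-like cells they were 1.33, 2.05 and 86.5 TPM in pool 2, and 1.61, 1.95 and 274 TPM in pool 1. At or above 10 TPM were 11 of 16 radial glia-like cells and 21 of 109 excitatory neuron-like cells. Egr1 rose by 3.57 ± 0.75 (adjusted p = 0.0147) against excitatory neuron-like cells and by 3.84 ± 0.75 (adjusted p = 0.00935) against interneuron-like cells.

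Ier2, a small nuclear protein of the early response, was common in most classes. It was detected in 12 of 16 radial glia-like cells (75%, 47.6 to 92.7%), 9 of 29 interneuron-like cells (31.0%, 15.3 to 50.8%) and 64 of 109 excitatory neuron-like cells (58.7%, 48.9 to 68.1%). In radial glia-like cells its lowest, median and highest values were 1.40, 449 and 895 TPM in pool 2, and 1.64, 206 and 382 TPM in pool 1. In interneuron-like cells they were 1.72, 2.22 and 442 TPM in pool 2, and 1.66, 2.07 and 105 TPM in pool 1. In cluster 9 Ier2 was detected in 6 of 7 cells, at a mean log2 level of 6.15 against 6.28 in radial glia-like cells. Ier2 rose in radial glia-like against interneuron-like cells (3.26 ± 0.65, adjusted p = 0.0103). Against excitatory neuron-like cells its difference of 1.81 ± 0.65 did not pass (adjusted p = 0.139), nor did that of -1.45 ± 0.65 between the interneuron-like and the excitatory class (adjusted p = 0.99996).

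Dusp1, the phosphatase that acts against the kinases upstream of the other members, was common in all classes. It was detected in 9 of 16 radial glia-like cells (56.3%, 29.9 to 80.2%), 20 of 29 interneuron-like cells (69.0%, 49.2 to 84.7%) and 77 of 109 excitatory neuron-like cells (70.6%, 61.2 to 79.0%). Its lowest, median and highest values were 1.56, 170 and 239 TPM in radial glia-like cells of pool 2 and 1.63, 3.02 and 311 TPM in those of pool 1, against 1.47, 207 and 810 TPM in excitatory neuron-like cells of pool 2 and 1.56, 71.8 and 817 TPM in those of pool 1. The highest of the 16 radial glia-like cells lay far below the highest of the 109 excitatory neuron-like cells. As the groups differ in size, these maxima do not show a class difference, and the bulk of both classes overlapped. The difference was -1.03 ± 0.73 against excitatory neuron-like cells (adjusted p = 0.4933) and -0.59 ± 0.73 against interneuron-like cells (adjusted p = 0.711).

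Atf3, a stress-induced repressor of the ATF family, was detected in 4 of 221 cells. All 4 had the letter B and came from pool 2: 1 radial glia-like cell (85.5 TPM), 2 excitatory neuron-like cells (1.69 and 251 TPM) and the single unnamed cell (1345 TPM). Nr4a1, an orphan nuclear receptor induced by activity, was detected in 7 cells, of which 1 was radial glia-like (49.2 TPM), 1 newborn neuron-like (121 TPM), 1 interneuron-like (8.41 TPM) and 4 excitatory neuron-like (9.28, 30.8, 62.9 and 100.3 TPM). At these numbers no class difference could be tested for either gene.

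**Figure D2:**
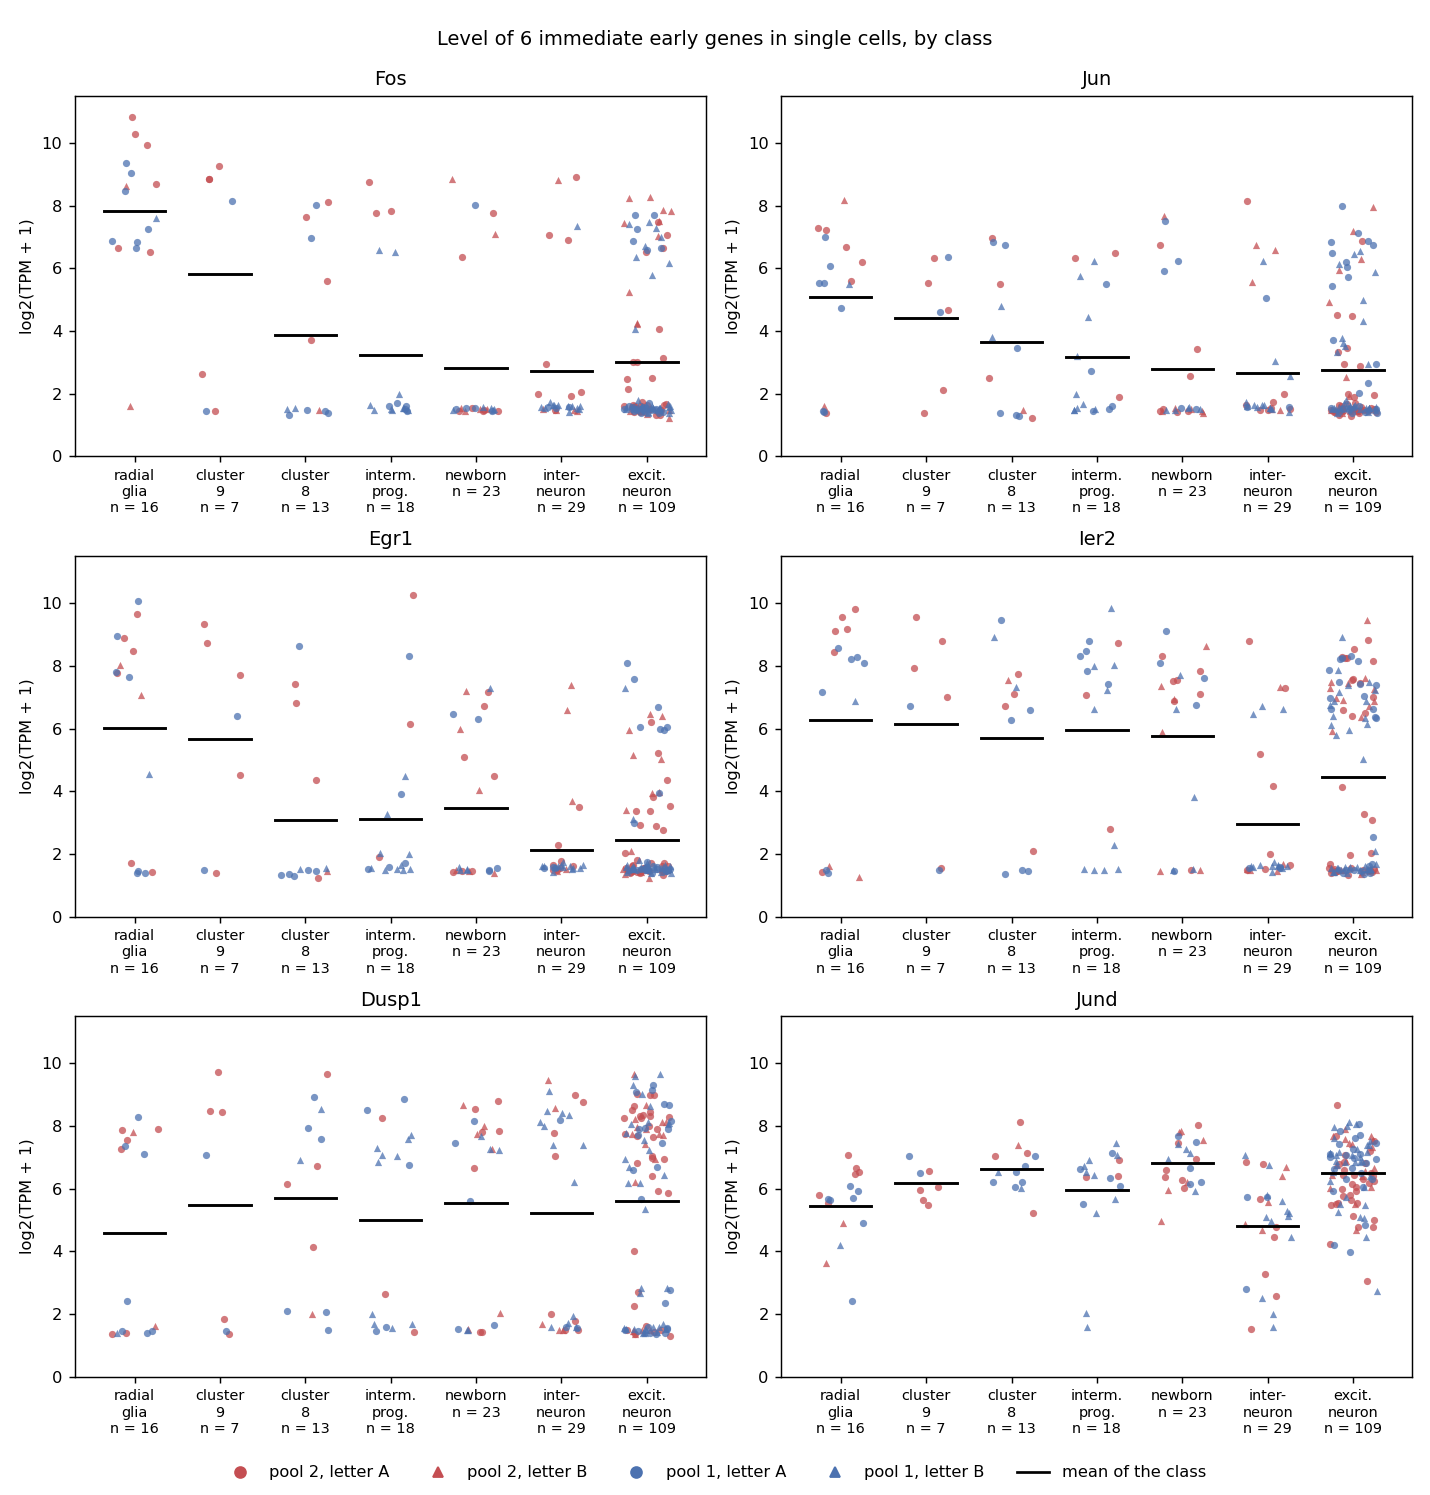
Level of 6 members in single cells, as log2(TPM + 1), by class or cluster (n cells under each, names by markers and written without "like"); colour gives the pool, shape the letter and the black line the class mean. The floor differs between cells, and points near 1.5 are at the floor of their cell or just above it. Fos is detected in 15 of 16 radial glia-like cells, and Jund is above its floor in 219 of the 221 cells. Dusp1 has a high and a floor group in every named class, while in cluster 8 it is above the floor in 12 of 13 cells.

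Because letter and class are unevenly mixed (13 of 16 radial glia-like cells have A, against 57 of 109 excitatory neuron-like cells), the classes were also set side by side within each of the 4 combinations of pool and letter. These are values with no test. Fos, Jun and Egr1 exceeded their excitatory neuron-like levels in the radial glia-like cells of 4 of 4 combinations. For Fos the differences of mean log2(TPM + 1) were 4.88 in pool 1 with A (7 cells of the radial glia-like class and 24 of the excitatory class), 4.74 in pool 1 with B (1 and 34 cells), 6.34 in pool 2 with A (6 and 33 cells) and 0.70 in pool 2 with B (2 and 18 cells). The smallest of these rests on 2 radial glia-like cells, of which 1 had 393 TPM and the other was at the floor. For Egr1 the 4 differences ran between 2.36 and 4.47, and for Jun between 0.73 and 3.65. Dusp1 was lower in radial glia-like cells in all 4 combinations (-3.52 to -0.66), although it passed no test. Ier2 was higher in 3 of 4 and Junb in 3 of 4, while Jund was higher in 1 of 4. With A cells alone, no member was called in that comparison, at differences of 5.61 for Fos (adjusted p = 0.0968), 3.21 for Egr1 (adjusted p = 0.159) and 2.19 for Jun (adjusted p = 0.402).

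**Figure D3:**
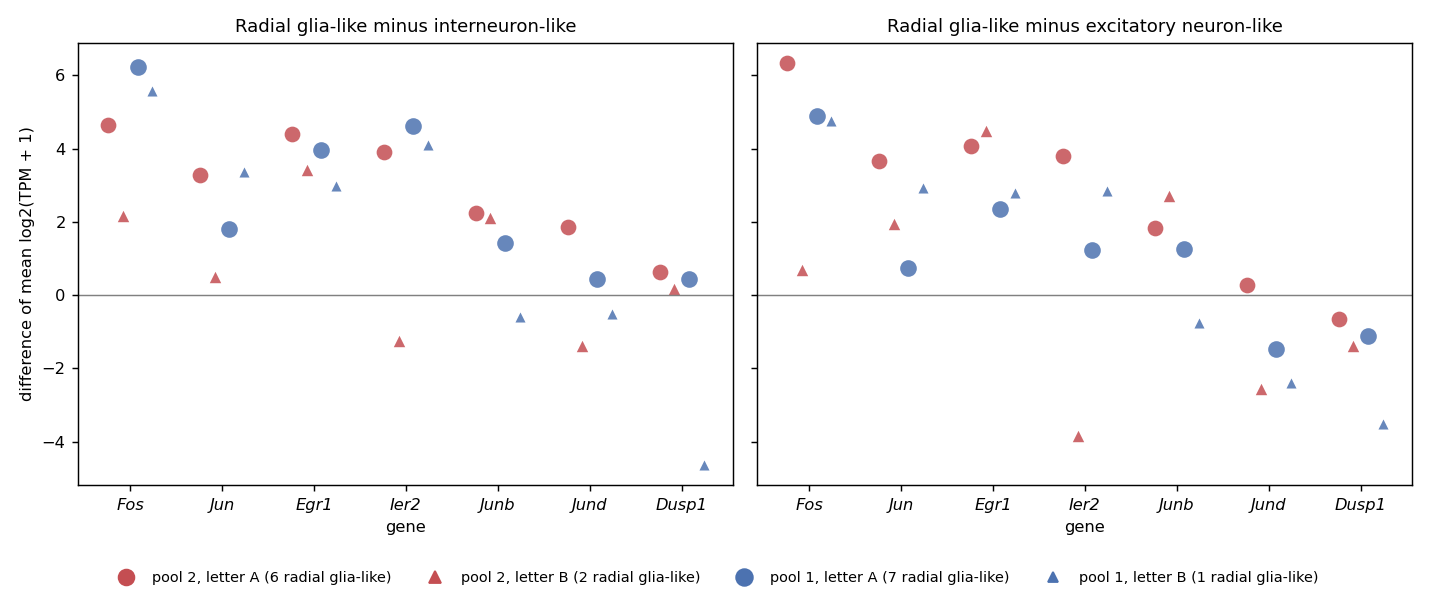
Difference of mean log2(TPM + 1), radial glia-like minus interneuron-like (left) and minus excitatory neuron-like cells (right), for 7 members within each combination of pool (colour) and letter (shape); larger points rest on more radial glia-like cells (1, 2, 6 or 7). Fos, Jun and Egr1 lie above 0 at all 4 points in both panels, whereas Ier2, Junb, Jund and Dusp1 have points on both sides of 0 in at least 1 panel.

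The letters themselves were compared with profiles of at least 3 cells per class, pool and letter. Radial glia-like cells with B were 1 in pool 1 and 2 in pool 2, so that class had no profile with B. Cluster 6, cluster 8 and cluster 9 had none either. The comparison thus rests on the neuron classes and the intermediate progenitor-like cells, and letters within radial glia-like cells were not tested. No member was called for A against B (limma; 0% of all genes were called, 0 of 7 members had an unadjusted p below 0.05). Cells of both letters in 1 pool share their animals, so this test measures the spread between profiles.

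Between the pools, values are given with no test. In excitatory neuron-like cells Fos was detected in 26 of 51 cells of pool 2 (51.0%) and 16 of 58 of pool 1 (27.6%), and Egr1 in 26 of 51 (51.0%) and 12 of 58 (20.7%). In interneuron-like cells Fos was detected in 7 of 13 cells of pool 2 and 1 of 16 of pool 1, and Egr1 in 7 of 13 and 0 of 16. The radial glia-like class did not share this for Fos, with 7 of 8 cells in pool 2 and 8 of 8 in pool 1. Jun showed no such shift in excitatory neuron-like cells (18 of 51 in pool 2 and 25 of 58 in pool 1). The levels did not follow these shares throughout. In interneuron-like cells the mean log2(TPM + 1) of Fos was 3.70 in pool 2 and 1.95 in pool 1, and that of Egr1 was 2.77 and 1.59. Some of these detections lay near the floor, however. Of the 8 interneuron-like cells with Fos, 5 had 10 TPM or more, and of the 7 with Egr1, 4 had. The medians in pool 2 were 2.97 TPM for Fos and 2.12 TPM for Egr1. In excitatory neuron-like cells the mean log2(TPM + 1) of Fos was 3.16 in pool 2 and 2.88 in pool 1, and that of Egr1 was 2.54 and 2.35, while the mean of Egr1 in TPM was 11.6 in pool 2 and 18.9 in pool 1. The Egr1 gap also differed by letter: among excitatory neuron-like cells with A it was detected in 17 of 33 in pool 2 and 10 of 24 in pool 1, and among those with B in 9 of 18 and 2 of 34. Within pool 1 the letters thus stood as far apart for Egr1 (41.7% with A and 5.88% with B) as the pools did. For Fos the share was higher in pool 2 with either letter (48.5% and 29.2% with A, 55.6% and 26.5% with B), but with A the mean log2 level was lower in pool 2 (2.47) than in pool 1 (2.91). With 1 suspension per pool, a pool difference cannot be told apart from a difference between preparations.

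**Figure D4:**
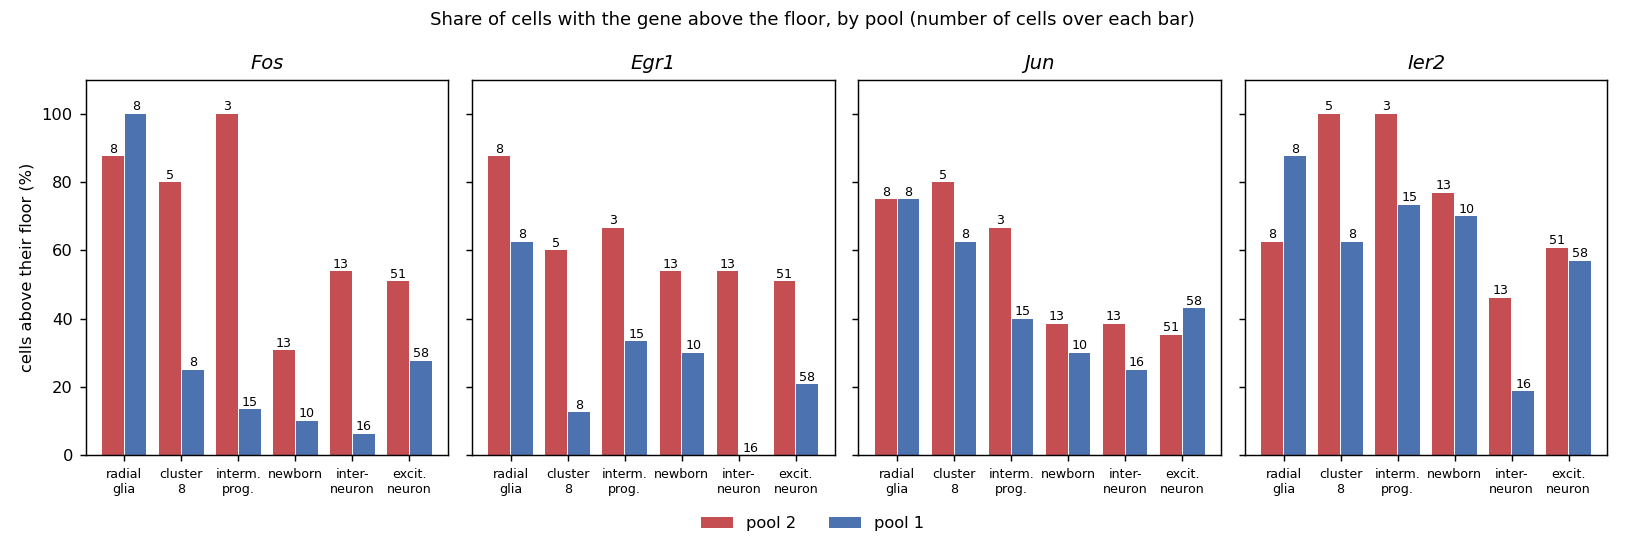
Percent of cells above their floor for Fos, Egr1, Jun and Ier2 in pool 2 (left bar) and pool 1 (right bar), by class or cluster, with the number of cells over each bar. Egr1 is higher in pool 2 in all 6 groups shown and Fos in 5 of 6, radial glia-like cells being the exception at 87.5% and 100%.

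Between interneuron-like and excitatory neuron-like cells no member was called (limma; 0.337% of all genes were), and 2 of 7 members, Jund and Ier2, had an unadjusted p below 0.05. Ier2 was detected in 9 of 29 interneuron-like cells, against 64 of 109 excitatory neuron-like cells, and was lower in all 4 combinations of pool and letter, as was Jund. Fos, Jun, Junb and Egr1 differed by less than their standard errors between these 2 neuron classes.

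Intermediate progenitor-like cells were named by markers of the dividing daughters of radial glia, with Eomes in 16 of 18. Whether they divide was not tested. All 18 held 100 TPM or more of Neurod6, and its median there, 2072 TPM, exceeded the 1697 TPM of the excitatory class. Against that class 11 of 12 cell cycle genes had positive differences, but 0 were called (limma). In radial glia-like cells 7 of the 12 were called higher than in intermediate progenitor-like cells. The latter were split by pool. Fos was detected in 3 of 3 intermediate progenitor-like cells in pool 2 and in 2 of 15 in pool 1, and Egr1 in 2 of 3 and 5 of 15. In pool 1, which holds nearly all of them, Fos was detected in 8 of 8 radial glia-like cells, and in pool 2 in 7 of 8. No member was called against excitatory neuron-like cells (0.0187% of all genes were; 1 of 7 members, Ier2, had an unadjusted p below 0.05), and none when the radial glia-like class was set against them (2.77% of all genes were called higher; 1 of 7, Junb, at an adjusted p of 0.0642). This fit took profiles of at least 3 cells in place of 4, a choice made after the cell numbers were seen.

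Newborn neuron-like cells had Fos in 5 of 23, Jun in 8 of 23 and Egr1 in 10 of 23 cells, and no member was called against excitatory neuron-like cells (0% of all genes were called; 0 of 7 members had an unadjusted p below 0.05). Cluster 8 had Fos in 6 of 13, Jun in 9 of 13 and Egr1 in 4 of 13 cells, also with no call (0% of all genes; 0 of 7 members below an unadjusted p of 0.05). Cluster 9, too small in pool 1 for a test, had Fos in 6 of 7, Jun in 6 of 7 and Egr1 in 5 of 7 cells, with Fos at 10 TPM or more in 4 of 7. Both clusters were split by pool for Fos. Cluster 9 had it in 5 of 5 cells of pool 2 and 1 of 2 of pool 1, and cluster 8 in 4 of 5 cells of pool 2 and 2 of 8 of pool 1. Joining clusters 8 and 9 to the radial glia-like class left Fos as the only member called against excitatory neuron-like cells, at 2.99. In cluster 6, Fos was detected in 1 of 5 cells and Egr1 in 0 of 5.

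How many members a single cell held was counted next. These counts follow in part from the shares of each gene given above, and whether the genes met in the same cells more often than those shares give was not tested. Fos, Jun and Egr1 were all detected in 9 of 16 radial glia-like cells (56.3%), 3 of 29 interneuron-like cells (10.3%) and 7 of 109 excitatory neuron-like cells (6.42%). None of the 3 was detected in 0 of 16, 14 of 29 and 32 of 109 cells of these classes. The number of members above the floor per cell had a median of 5 (range 3 to 7) in radial glia-like cells, 2 (0 to 6) in interneuron-like cells and 4 (1 to 6) in excitatory neuron-like cells. More genes in all were detected in radial glia-like cells, at a median of 4822.5, against 3468 in interneuron-like and 4037 in excitatory neuron-like cells. In cells with 3238 to 5283 genes above the floor, the Fos difference against excitatory neuron-like cells was as large (5.12), but only Jun was called (3.11, adjusted p = 0.0445; Fos adjusted p = 0.0713).

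Across the cells of a class, the members followed each other loosely. Over 109 excitatory neuron-like cells Spearman's rho was 0.31 for Fos with Egr1, 0.34 for Egr1 with Ier2, 0.36 for Jun with Jund and 0.12 for Fos with Jun. Over 16 radial glia-like cells rho was 0.44 for Fos with Jun, 0.26 for Fos with Egr1, 0.47 for Egr1 with Ier2 and 0.62 for Jun with Dusp1. Jun with Ier2 gave -0.35 there. Cells of 1 pool share a preparation, many values are ties near the floor, and rho with how many genes a cell had detected lay between -0.17 and 0.36 for single members in excitatory neuron-like cells, so these are descriptions. Among the 10 genes most like the mean of the 10 members, of 8999 genes over 221 cells and after class, pool and letter means were taken off, were Aif1l (Pearson r = 0.29), Wasl (0.29), Uck2 (0.28) and Aatf (0.27). The mean of the members itself had r = 0.22 with the genes detected per cell.

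Genes related to the members were described by whole lists, chosen, like the members, with earlier results of these cells known. Of 37 other immediate early genes, 21 were tested, and 4 rose and 0 fell in the radial glia-like against the excitatory class. There 4.02% of all genes were called higher and 1.41% lower. The list's median was 0.47, against -0.05 for all genes. Those with the largest change were Zfp36l1, an RNA-binding protein that destabilises messages (3.90 ± 0.53, adjusted p = 0.00168), Cyr61, a secreted matrix protein (3.84 ± 0.50, adjusted p = 0.00133), and Klf6, a zinc finger factor (2.55 ± 0.63, adjusted p = 0.0314). Cyr61 was detected in 11 of 16 radial glia-like cells and 1 of 109 excitatory neuron-like cells. The 11 radial glia-like cells alone were enough to take it past the filter of 10 cells. For the lists, passing on cells outside this class was not checked, so their counts are a description. Among the genes not tested because they were above the floor in fewer than 10 cells were Egr2, Egr3, Egr4, Arc and Npas4, of which Arc and Npas4 are tied to neuronal activity.

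Of 27 tested regulators upstream of the members, which include MAP kinases, SRF and CREB factors, 0 were called by limma in either direction against excitatory neuron-like cells (7 at an unadjusted p below 0.05, median -0.17). Against interneuron-like cells, where 4.42% of all genes were called higher, 1 of the 27 (3.70%) rose, the kinase gene Rps6ka1 (1.61 ± 0.42, adjusted p = 0.0383). Of 7 tested AP-1 partners, 0 were called by limma (1 at an unadjusted p below 0.05, median -0.36), and in radial glia-like against interneuron-like cells Maf, a known interneuron factor, was lower (-2.54 ± 0.36, adjusted p = 0.00154; 1.53% of all genes were called lower). Of 13 heat shock and chaperone genes tested, 0 were called by limma against excitatory neuron-like cells (2 at an unadjusted p below 0.05, median 0.34), and Hspa5 and Hspa4l rose against interneuron-like cells (2.55 ± 0.53, adjusted p = 0.0126, and 2.17 ± 0.59, adjusted p = 0.0453). The classical stress-induced Hspa1a, Hspa1b and Hspb1 were above the floor in too few cells to be tested. Against excitatory neuron-like cells 4.02% of all genes were called higher. Of 14 genes of the integrated stress response, 1 (7.14%) rose in that comparison: Psat1, an enzyme of serine synthesis (5.01 ± 0.88, adjusted p = 0.00551). Cell cycle genes moved with the class, with 8 of 12 higher (median 2.91), among them Birc5 (4.74 ± 0.79, adjusted p = 0.00441), Cdk1 (4.40 ± 0.67, adjusted p = 0.00282) and Mcm3 (3.93 ± 0.51, adjusted p = 0.00133). Mcm3 was detected in 13 radial glia-like cells and 3 excitatory neuron-like cells, and the former alone were enough for it to be tested. The part of the cell cycle genes in the levels of Fos, Jun and Egr1 was not tested.

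Other cell types with high early gene levels were looked for in the radial glia-like class. Of 8 microglia markers 3, Cx3cr1, C1qb and Tyrobp, were above the floor in it, in 3 cells, with a summed level of at most 20.0025 TPM. The others, Csf1r, C1qa, Aif1, P2ry12 and Tmem119, were at the floor in all 16 cells. All 6 endothelial, all 5 meningeal and both blood markers were at the floor in all 16 cells. Of 5 pericyte markers 2, Pdgfrb and Vtn, were above the floor, in 2 cells, with a summed level of at most 3.26 TPM. Of 3 choroid plexus and ependyma markers 1, Foxj1, was above it, in 1 cell at 1.83 TPM. Astrocyte markers summed to a median of 175 TPM (range 0 to 961) and oligodendrocyte precursor markers to 164 TPM (0 to 2226), with Sox10 at the floor in every cell. In excitatory neuron-like cells the medians of both lists were 0 TPM. Their part in the early gene levels was not tested.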

How the data were processed

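Single cells were captured on a Fluidigm C1 chip, and complementary DNA was made with a SMARTer kit, per the labels' protocols. The submitters' processing notes name TopHat2 2.0.14, Bowtie2 2.2.6, Cufflinks 2.2.1 and the mm10 build. The authors deposited TPM values, which sum to 1000000 per cell; how the floor of each cell arose and whether strand was used are not given in the sources used here.

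Cells were clustered on log2(TPM + 1) of 74 marker genes (10 principal components, Ward linkage, 10 clusters) and named by markers; leaving clusters unnamed where Eomes was in over 50% of cells or the Neurod6 median was 500 TPM or more was decided after the clusters were seen. No doublet caller was run. Mean log2(TPM + 1) per class and pool, with at least 4 cells, was compared with limma 3.58.1 in R 4.3.3 over 10682 genes detected in at least 10 cells, with Benjamini-Hochberg adjustment and no block; the script was tested on simulated data. Intermediate progenitor-like profiles took at least 3 cells. Standard errors follow the ± sign. P-values measure the spread between 2 pools. All classes of 1 pool share its animals, and pools therefore pair them; deviations of classes from their means correlated at -0.05 to 0.04. Genes were named if they were members, belonged to the lists and were called with the largest changes, or were most like the members' mean. Of the genes most like that mean, 1 is not reported here. The members and lists were chosen with earlier results of these data known. Promoters were RefSeq's for GRCm38.p6, and TGACATCA was searched after the Jun sequence had been seen.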

Additional observations from a re-analysis of the deposited data

Results flagged for a closer look

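Among the 8 radial glia-like cells of pool 2, the cell with the lowest Fos had 1.61 on the log2(TPM + 1) scale, and the next had 6.51, a gap that stood out against the range of the 8 cells. It was the cell with the fewest genes detected in its class, 2691, and it had Egr1 and Junb above its floor. Of 14 groups examined in this way, chance alone marks about 1 in 20.

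The single unnamed cell, from pool 2 with letter B, belonged to no comparison and carried microglia markers among its leading genes. It had 53.9 TPM of Fosb, 613 TPM of Junb and 1345 TPM of Atf3, each the highest of all 221 cells. The next highest cells had 39.4 TPM of Fosb, 563 TPM of Junb and 251 TPM of Atf3.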

How the results depend on the processing

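Against excitatory neuron-like cells, 3 members were called in radial glia-like cells. There was 1 with the log2 of the mean TPM, with marker gates in place of clusters, in the middle range of genes detected, with clusters 8 and 9 joined, and without radial glia-like cells of 100 TPM Neurod6 or more. There were 0 with A cells alone. With the pool as a replicate block 2 of the 3 were called, Jun being lost (adjusted p = 0.0532). Against interneuron-like cells 4 were called, with 2 when pool and letter were units with their combination as a block, with the log2 of the mean, with gates, without cells high in Neurod6 and with A cells, and 0 in the middle range. Against intermediate progenitor-like cells 0 were called, and 1 with a pseudocount of 10, floor values set to 0, no filter, weighting by cells, or 8 clusters. The last 3 settings on cells (joined clusters, Neurod6, A cells) were chosen after seeing the data, and the causes were not tested.

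Under marker gates the differences against excitatory neuron-like cells turned to -0.070 for Junb and -1.13 for Ier2, and against interneuron-like cells to -0.14 for Junb. The gated groups are not the clustered classes. The radial glia gate took 9 of the 16 radial glia-like cells, 6 interneuron-like cells, and 1 cell each of cluster 8, cluster 9 and the excitatory neuron-like class. Against interneuron-like cells Junb was -0.19 in the middle range and Dusp1 0.54 with A cells. Over 16 alternatives the Fos difference against excitatory neuron-like cells was 2.99 to 5.62 and called in 12 of them, that of Egr1 1.49 to 4.19 and called in 11, and that of Jun 1.49 to 3.26 and called in 7. Leaving out each pool gave 4.73 to 4.89 for Fos, 3.06 to 4.09 for Egr1 and 1.57 to 3.13 for Jun.

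Over all genes, 580 were called against excitatory neuron-like cells (185 to 996 under the alternatives), 635 against interneuron-like cells (256 to 906) and 434 against intermediate progenitor-like cells (8 to 681). Interneuron-like against excitatory neuron-like cells gave 36 (7 to 195), and the intermediate progenitor-like against the excitatory class 2 (0 to 55). With the log2 of the mean TPM the split was 77 higher and 135 lower against excitatory neuron-like cells, in place of 429 and 151, with a median of all genes of -0.28. Against interneuron-like cells it was 115 and 176 (median -0.19), and 398 and 297 with quantile normalization, in place of 472 and 163. Depth is unknown, so a value at the floor does not show that a gene was absent.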
